A study of Homo sapiens with 12 samples.

Results

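The 47 genes described here encode the machinery of mitosis and of the G2/M phase of the cell cycle, and they were taken by name from the 55782 gene symbols of the deposited count table. They were sorted into 8 roles: cyclins, CDK1 and mitotic entry; mitotic kinases; kinetochore and spindle checkpoint; kinesin motors; spindle assembly; chromosome structure; anaphase and exit; and cytokinesis. All 47 were found, and all 47 passed the filter on low counts. The smallest count of any member in any library was 194, in CDC25C. The genes were read in every library together with the length that the authors deposited for each gene.

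Entry into mitosis is driven by CDK1 bound to cyclin A or B, which the CDC25 phosphatases activate. Condensin and topoisomerase then compact the chromosomes, kinesin motors and microtubule-binding proteins build the spindle, and the spindle checkpoint holds the anaphase-promoting complex in check until the kinetochores are attached. Most of these genes are transcribed late in the cycle through promoter elements known as the CHR and the CCAAT box, and in dividing lymphoid lines their mRNAs are commonly read as markers of cells in G2 and M.

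The 12 libraries come from Jurkat cells (a human line from a T cell leukaemia, labelled LAG3+PD1+) grown together with Raji cells (a human line from a Burkitt lymphoma, of B cell origin, labelled with PDL1). The antibodies block 2 receptors that restrain T cells, LAG3 and PD1, the second of which binds PDL1. The Raji cells of all 12 co-cultures had been loaded with the superantigen SED at 100 ng/ml, both lines had been kept under drug selection (puromycin, and Geneticin for Jurkat), and the co-cultures ran for 24 h. The arms were anti-LAG3 (MK4280 plus isotype), anti-PD1 (MK3475 plus isotype), the combination (MK3475 plus MK4280) and isotype (isotype antibody in both places), each given at 0.01, 0.1 and 1 µg/ml per antibody and read in 1 library per dose. Wells of a condition were pooled into 1 pellet, and nothing in the labels says that any 2 libraries repeat each other. The 3 doses of an arm were therefore its 3 libraries, and p-values reflect how far these libraries scatter, and that scatter may be technical. Both lines divide and their RNA was read together, so that no member's value can be assigned to 1 line, and fewer cells of a type cannot be told apart from less RNA per cell.

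The libraries held 23593973 to 36581754 counts, the isotype library at 1 µg/ml being the deepest. T markers of Jurkat (22 genes) and B markers of Raji (25 genes) all had counts in every library. LAG3 itself had 0 to 2 counts per library, at or below the 3 counts that a count of 0 allows, whereas PDCD1, which encodes PD1, had 181 to 229 CPM (each count divided by its library's total and put on a common scale) and CD274, which encodes PDL1, had 80.6 to 96.8 CPM. The LAG3 label of the Jurkat line was thus not visible in the gene counts.

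The promoters of the members are shown first, searched for the CHR and the CCAAT box, which many but not all of them held. RefSeq (GRCh38.p14) promoters from 250 bases before to 50 bases after the transcription start were matched by symbol for 40 of the 47 members. The CHR was searched as TTTGAA or TTCGAA and the CCAAT box as CCAAT, each on both strands. The CHR stood in 30 of the 40 member promoters (75%), against 16.6% of all 27305 promoters. The CCAAT box stood in 28 of 40 (70%), against 35.7% of all promoters, and both stood in 22 of 40 (55%), against 6.58%. The promoter of CCNB2, which encodes cyclin B2, is printed as the textbook arrangement, with several CCAAT boxes before a CHR, and the other 4 belong to the members with the longest deposited lengths, on which the results below turn. Capitals mark the CHR and the CCAAT box on either strand (TTCAAA and ATTGG are the reverse forms), and in MKI67 the second CHR overlaps an ATTGG.
CCNB2: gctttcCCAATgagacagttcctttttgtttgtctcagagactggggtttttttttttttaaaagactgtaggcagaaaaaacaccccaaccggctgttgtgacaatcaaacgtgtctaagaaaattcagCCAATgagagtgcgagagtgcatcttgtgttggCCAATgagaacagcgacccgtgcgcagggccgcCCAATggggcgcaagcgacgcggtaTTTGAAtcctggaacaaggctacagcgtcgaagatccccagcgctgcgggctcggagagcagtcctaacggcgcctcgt
MKI67: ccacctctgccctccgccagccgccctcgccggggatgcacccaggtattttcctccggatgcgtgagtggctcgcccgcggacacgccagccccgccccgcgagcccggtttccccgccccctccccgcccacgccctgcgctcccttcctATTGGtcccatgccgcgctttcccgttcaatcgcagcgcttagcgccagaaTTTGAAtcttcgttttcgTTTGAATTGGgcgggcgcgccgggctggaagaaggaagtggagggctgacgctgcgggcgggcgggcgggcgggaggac
CENPF: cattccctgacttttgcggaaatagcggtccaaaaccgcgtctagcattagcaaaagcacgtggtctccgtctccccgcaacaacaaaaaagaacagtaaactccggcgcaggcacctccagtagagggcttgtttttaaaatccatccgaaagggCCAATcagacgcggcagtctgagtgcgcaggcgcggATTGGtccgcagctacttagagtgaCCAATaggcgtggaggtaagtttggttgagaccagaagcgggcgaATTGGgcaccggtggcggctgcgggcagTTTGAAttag
ASPM: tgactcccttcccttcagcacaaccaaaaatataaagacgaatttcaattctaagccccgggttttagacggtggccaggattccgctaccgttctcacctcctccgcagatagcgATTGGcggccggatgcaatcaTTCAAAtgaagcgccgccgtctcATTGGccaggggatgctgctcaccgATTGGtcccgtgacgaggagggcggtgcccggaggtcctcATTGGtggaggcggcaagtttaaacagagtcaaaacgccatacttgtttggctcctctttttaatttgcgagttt
CENPE: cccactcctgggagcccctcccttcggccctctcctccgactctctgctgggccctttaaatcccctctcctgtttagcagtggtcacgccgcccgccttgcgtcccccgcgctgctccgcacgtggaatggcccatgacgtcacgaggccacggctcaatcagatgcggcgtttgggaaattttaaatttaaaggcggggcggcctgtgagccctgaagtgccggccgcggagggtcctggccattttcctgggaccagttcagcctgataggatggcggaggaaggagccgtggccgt
The stretches are chr15:59104896-59105195 (plus strand) for CCNB2, chr10:128126374-128126673 (minus strand) for MKI67, chr1:214602945-214603244 (plus strand) for CENPF, chr1:197146620-197146919 (minus strand) for ASPM, and chr4:103198294-103198593 (minus strand) for CENPE. MKI67, CENPF and ASPM, like CCNB2, held both motifs, while neither set of letters was in the CENPE window. A match describes the letters only.

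Levels per length spanned a wide range over the module. Computed as TPM, which divides by length before scaling, from the counts and the deposited lengths, the median over the 12 libraries was highest for TPX2, which activates Aurora A and nucleates spindle microtubules, at 378 TPM (range 361 to 391), followed by TOP2A, the topoisomerase that disentangles sister chromatids, at 336 TPM, and UBE2C, the ubiquitin-conjugating enzyme of the anaphase-promoting complex, at 322 TPM. The ranges of TOP2A and UBE2C overlapped, and so did those of TPX2 and TOP2A. The lowest were KIF18A, a kinesin that damps chromosome movements, at 20.1 TPM, CENPE, a kinetochore kinesin that moves chromosomes to the spindle equator, at 17.1 TPM, and CDC25C, a CDK1-activating phosphatase, at 9.34 TPM. CDC25C was below all others without overlap, at 8.59 to 10.3 TPM.

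**Figure D1:**
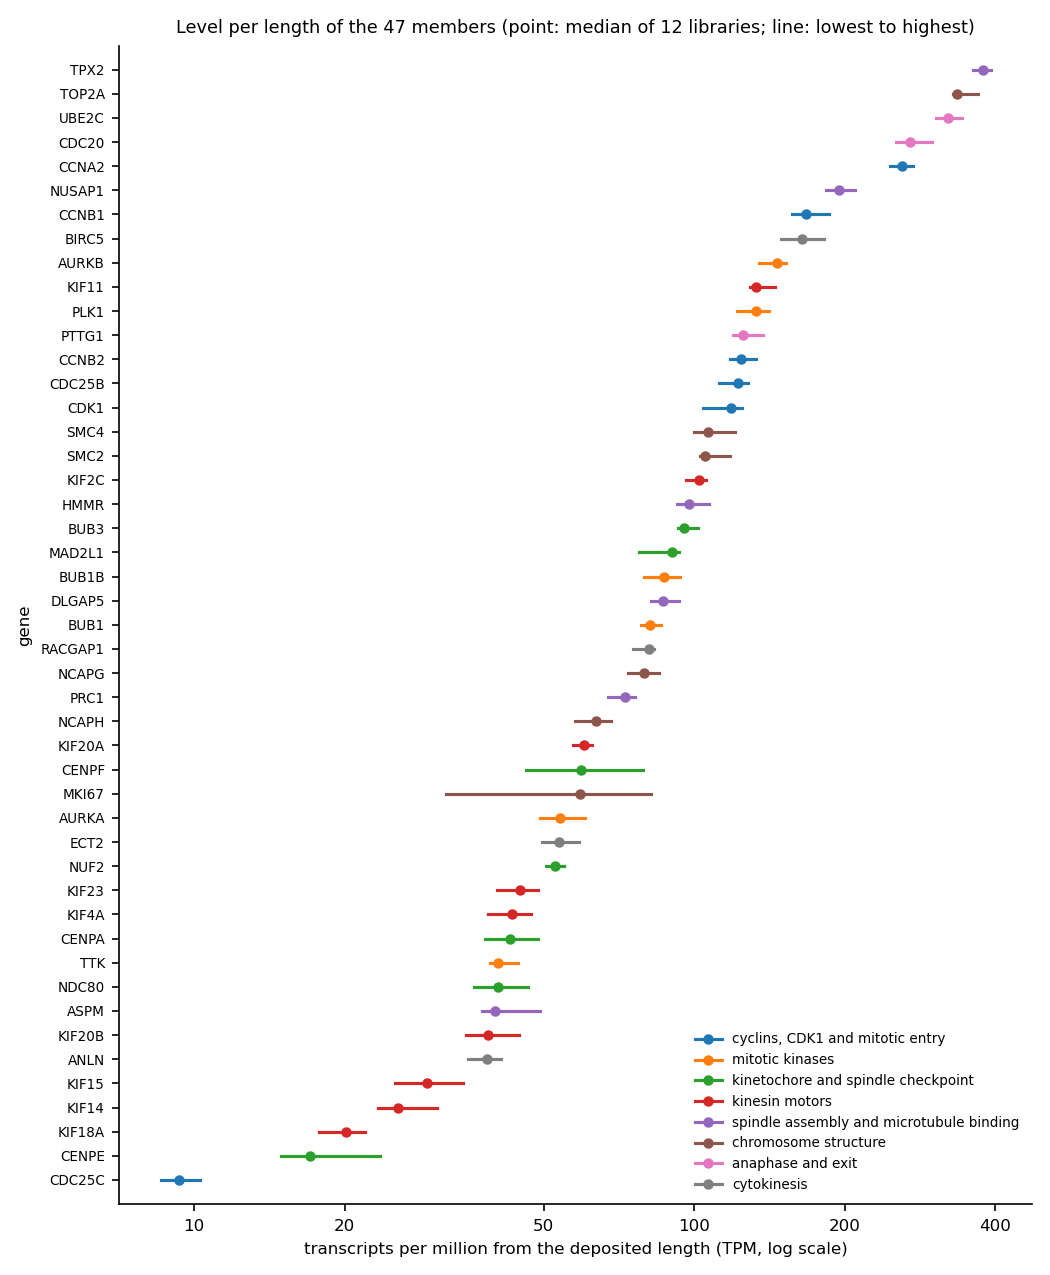
Level per length (TPM, log scale) of the 47 members, 1 line per gene, coloured by role; the point is the median and the line the range of the 12 libraries. MKI67 and CENPF have the longest lines, and TPX2, TOP2A and UBE2C stand at the top.

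Members differed widely in how much they moved over the 12 libraries. The highest library exceeded the lowest 2.54-fold for MKI67, which encodes Ki-67, the protein that coats mitotic chromosomes and a common marker of proliferation. This ratio was 1.69 for CENPF, a kinetochore protein of G2 and M, and 1.55 for CENPE, whereas it was 1.08 for TPX2 and 1.07 for NUF2, a subunit of the NDC80 kinetochore complex. The members thus did not move as 1 block.

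Anti-LAG3 was set against isotype to ask what the antibody does to the mitotic genes alone. MKI67, CENPF, CENPE, KIF20B, ASPM, SMC4 and SMC2 fell in the anti-LAG3 arm, by 0.13 to 0.95 on the log2 scale, and BIRC5 rose. These were 8 of the 47 members (17.0%) with an adjusted p under 0.05 in edgeR's quasi-likelihood test, where 10% of the 15535 genes tested were called in this comparison. The 7 lower members stand beside 5.16% of all genes called lower, and the 1 higher member beside 4.88% called higher. The other 39 members, among them all cyclins, CDK1 and all mitotic kinases, did not pass. The median change of the 47 was -0.04 log2, against -0.0015 for all genes tested.

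MKI67 (chromosome 10, 128096659 to 128126385, minus strand, GENCODE v29 on GRCh38) had 180, 121 and 142 CPM in the anti-LAG3 libraries at 0.01, 0.1 and 1 µg/ml, against 304, 306 and 249 CPM in the isotype libraries. Every anti-LAG3 library was below every isotype library. The arm mean was 148 ± 29.9 CPM with anti-LAG3 and 287 ± 32.5 CPM under isotype (SD, n = 3 each), and the change was -0.95 ± 0.20 log2 (SE, adjusted p = 0.0374, lower in 3 of 3 libraries). This call lay near the threshold and was kept under 5 of 20 alternatives, with changes between -1.11 and -0.73 log2 in all 20.

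CENPE (chromosome 4, 103105806 to 103198409, minus strand) had 47.1, 41.6 and 42.8 CPM with anti-LAG3 at 0.01, 0.1 and 1 µg/ml, against 64.7, 63.0 and 51.4 CPM under isotype. The arms did not overlap, and the isotype library at 1 µg/ml was the lowest of its arm. The change was -0.44 ± 0.07 log2 (adjusted p = 6.54e-04, 3 of 3 libraries lower), the smallest p of any member, and the call held under all 20 alternatives. CENPF (chromosome 1, 214603195 to 214664588, plus strand) was at 190, 159 and 166 CPM with anti-LAG3, against 269, 261 and 204 CPM under isotype. Its change was -0.50 ± 0.10 log2 (adjusted p = 0.0171, 3 of 3 libraries lower), a call that was lost without the isotype library at 0.1 or at 0.01 µg/ml, with changes of -0.49 and -0.43 log2. The CENPF call was also lost with the T and B marker covariate.

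ASPM, which organises the spindle poles (chromosome 1, 197084128 to 197146694, minus strand), had 128, 124 and 119 CPM with anti-LAG3 at 0.01, 0.1 and 1 µg/ml, against 157, 148 and 129 CPM under isotype. The highest anti-LAG3 library came close to the lowest isotype library without reaching it, and the change was -0.22 ± 0.05 log2 (adjusted p = 0.0111). That call was lost without the anti-LAG3 library at 0.1 or 0.01 µg/ml, or without the isotype library at either of those doses, with changes of -0.23 to -0.18 log2. With each library's trend on coding length taken out the ASPM change was 0.013 log2, with its direction turned. KIF20B, a kinesin of cytokinesis, had 73.1, 71.3 and 70.1 CPM with anti-LAG3, against 84.5, 85.3 and 83.4 CPM under isotype, and fell by 0.24 ± 0.05 log2 (SE, adjusted p = 0.00567). Its arms lay well apart, and the call held whichever 1 of the 12 libraries was left out. It was lost with the T and B marker covariate (-0.38), with the trends on length and GC content taken out (-0.16) and with that on coding length taken out (-0.10).

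SMC4 and SMC2 form the ATPase core of condensin, the complex that compacts mitotic chromosomes. SMC4 had 249, 249 and 250 CPM with anti-LAG3 at 0.01, 0.1 and 1 µg/ml, against 297, 295 and 275 CPM under isotype, a change of -0.21 ± 0.04 log2 (adjusted p = 0.00307). SMC2 had 198, 199 and 193 CPM with anti-LAG3, against 222, 223 and 203 CPM under isotype, a change of -0.13 ± 0.04 log2 (adjusted p = 0.0412). Both genes were lower in 3 of 3 libraries, the SMC4 call held without any 1 library but was lost under the same 3 settings as that of KIF20B (-0.30, -0.11 and -0.12), and the SMC2 call was lost without any 1 of 7 libraries, at -0.14 to -0.12 log2. Those were all 3 anti-LAG3 libraries, the anti-PD1 library at 1 µg/ml, the combination library at 0.1 µg/ml and the isotype libraries at 0.1 and 0.01 µg/ml.

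BIRC5 encodes survivin, a subunit of the chromosomal passenger complex that acts at the kinetochore and in cytokinesis. It had 194, 200 and 200 CPM with anti-LAG3 at 0.01, 0.1 and 1 µg/ml, against 175, 172 and 175 CPM under isotype. All 3 anti-LAG3 libraries were above all 3 isotype libraries, and the change was 0.19 ± 0.04 log2 (adjusted p = 0.00705). Without the anti-LAG3 library at 1 or 0.1 µg/ml, or the isotype library at 0.1 µg/ml, the call was lost with changes of 0.17 to 0.18 log2. It was also lost with the T and B marker covariate and with the trend on coding length taken out.

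**Figure D2:**
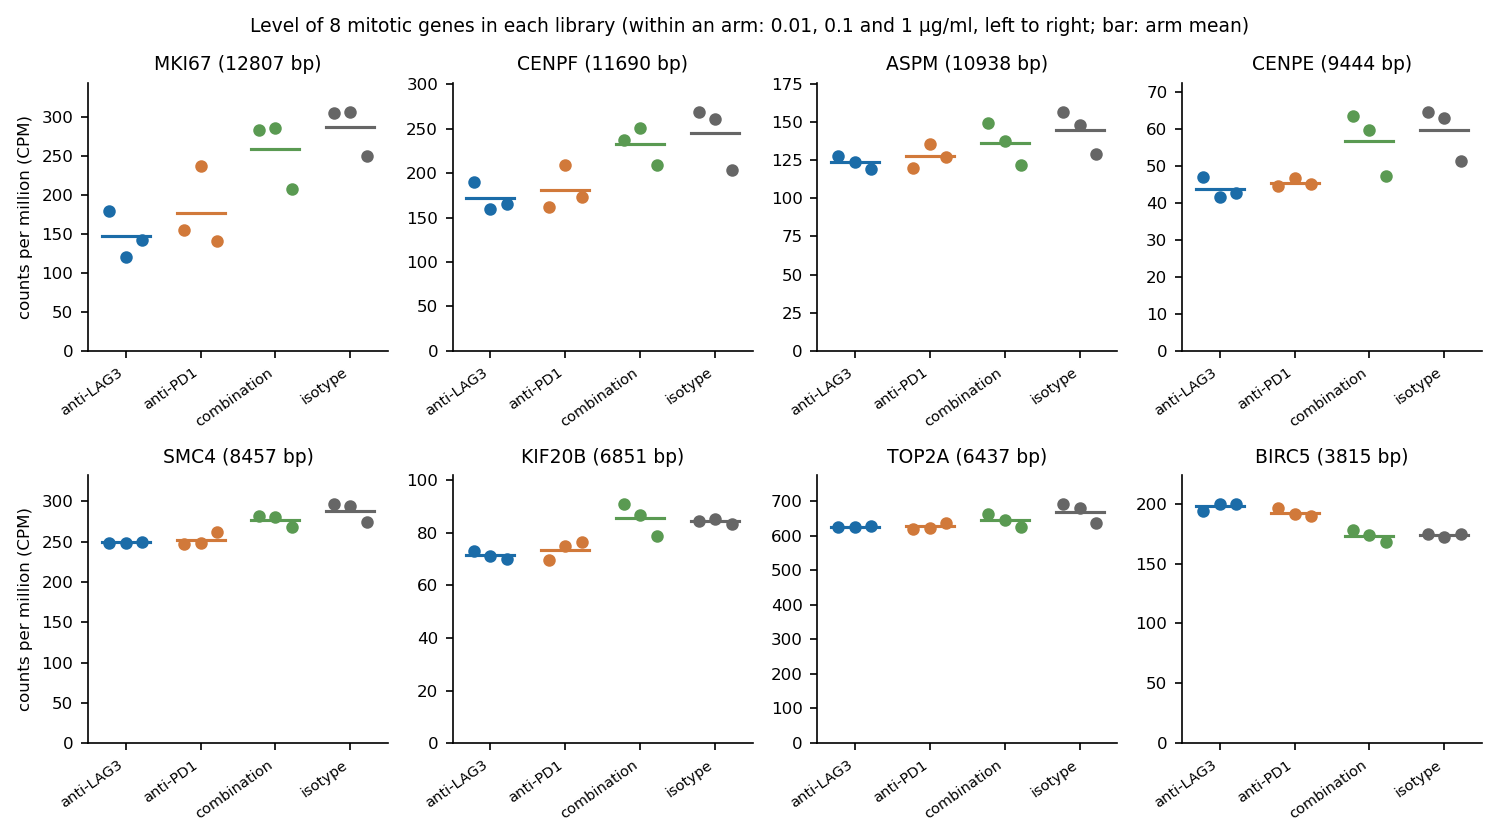
CPM of 8 members in each library, with the anti-LAG3, anti-PD1, combination and isotype arms from left to right and the 3 doses from low to high within each arm; the bar is the arm mean, and each panel gives the deposited length. MKI67, CENPF and CENPE are lowest in the anti-LAG3 and anti-PD1 arms, TOP2A differs little, and BIRC5 is higher in those 2 arms than with isotype.

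Without the fitted model, 19 of the 47 members had all 3 anti-LAG3 libraries below all 3 isotype libraries in CPM scaled by the TMM factors, where 14.1% of all genes tested did. The factor of the isotype library at 1 µg/ml was the lowest, 0.979, so that its scaled values lie above the CPM printed here, and a few genes overlap in CPM and not after scaling. Beside the 7 called members these included TOP2A, TTK and BUB1, which encode a topoisomerase and 2 checkpoint kinases, and NDC80 and NUF2 of the kinetochore. TOP2A had 624, 625 and 628 CPM with anti-LAG3, against 692, 679 and 637 CPM under isotype, a change of -0.09 ± 0.04 log2 that did not pass the test (adjusted p = 0.151). Only AURKA, the Aurora A kinase, and BIRC5 were higher in all 3 anti-LAG3 libraries, 2 of 47 where 14.7% of all genes did so.

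By role, the kinetochore genes had 2 of 7 members lower (CENPE and CENPF), the kinesins 1 of 9 (KIF20B), the spindle assembly genes 1 of 6 (ASPM) and the chromosome structure genes 3 of 6 (MKI67, SMC4 and SMC2). The 6 cyclin, CDK1 and CDC25 genes lay between -0.03 and 0.03 log2, none of them called. CCNB1, which encodes cyclin B1, had 127, 125 and 138 CPM with anti-LAG3 at 0.01, 0.1 and 1 µg/ml, against 125, 129 and 126 CPM under isotype. CDK1 had 132, 139 and 140 CPM with anti-LAG3, against 138, 143 and 123 CPM under isotype. The arms overlapped for both genes. The 6 mitotic kinases ranged from -0.13 log2 for TTK to 0.14 log2 for AURKA, and none was called.

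The count of 8 calls depended on single libraries. It was 5, 4 and 5 without the anti-LAG3 library at 1, 0.1 and 0.01 µg/ml. Leaving out the isotype library at 0.1 or 0.01 µg/ml gave 3 or 4. Markers of the lines differed between the arms as well. The summed level of the 22 T markers was 1977 to 2101 CPM with anti-LAG3, against 1778 to 1906 CPM under isotype, and that of the 25 B markers was 5450 to 5657 CPM with anti-LAG3, against 5586 to 5883 CPM under isotype. In the test, 4 T markers rose and none fell with anti-LAG3, while 1 B marker rose and 5 fell. The B sums overlapped between the arms. The 5 B markers that fell had deposited lengths of 6178 to 14503 bp, the one that rose had 2080 bp, and the 4 T markers that rose had 929 to 5111 bp. With the mean log2 difference between the T and the B markers as a covariate, 2 members were called in this comparison, both lower. That difference was -0.795 to -0.706 in the anti-LAG3 libraries and -0.996 to -0.956 in the isotype libraries. The covariate thus separated the 2 arms without overlap, and this fit can hardly tell its part from that of the arm. The KIF20B and SMC4 calls were lost with larger changes than in the main fit, at -0.38 and -0.30 log2. Whether the mix of the lines accounts for the lost calls was not tested.

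Anti-PD1 was set against the same 3 isotype libraries. CENPE, SMC4 and KIF20B fell with anti-PD1 and BIRC5 rose, 4 of 47 members (8.51%), where 3.82% of all genes tested were called, 1.73% lower and 2.09% higher. CENPE had 44.5, 46.7 and 45.2 CPM with anti-PD1 at 0.01, 0.1 and 1 µg/ml, against the isotype values above, and changed by -0.38 ± 0.07 log2 (adjusted p = 0.00500). SMC4 had 247, 248 and 261 CPM and changed by -0.19 ± 0.04 log2 (adjusted p = 0.0161), KIF20B had 69.6, 74.8 and 76.5 CPM and changed by -0.19 ± 0.05 log2 (adjusted p = 0.0385), and BIRC5 had 197, 191 and 190 CPM and changed by 0.15 ± 0.04 log2 (adjusted p = 0.0460). In each of these 4 genes all 3 anti-PD1 libraries lay on 1 side of all 3 isotype libraries.

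MKI67 had 155, 237 and 140 CPM with anti-PD1 at 0.01, 0.1 and 1 µg/ml, all below the isotype libraries, and the library at 0.1 µg/ml stood far above the others of its arm. The change of -0.70 ± 0.20 log2 did not pass (adjusted p = 0.135), nor did that of CENPF, -0.42 ± 0.10 log2 (adjusted p = 0.0594). DESeq2 called both genes. CENPF also passed with the T and B marker covariate, with no filter on low counts, and with the trend on length or on coding length taken out. It did not pass with the trends on length and GC content taken out together. CENPF had 162, 209 and 173 CPM with anti-PD1, and its library at 0.1 µg/ml was above the isotype library at 1 µg/ml in CPM but just below it after scaling. In all, 17 members, CENPF included, had every anti-PD1 library below every isotype library after scaling, where 10.9% of all genes did, and BIRC5 was the 1 member with every library above, where 11.3% of all genes were. The number of called members was 0 without the anti-PD1 library at 0.01 µg/ml or the isotype library at 0.1 µg/ml, 1 without the isotype library at 0.01 µg/ml, 7 without the isotype library at 1 µg/ml, and 2 without the anti-PD1 library at 0.1 µg/ml, the anti-LAG3 library at 1 µg/ml or the combination library at 0.1 µg/ml. The T markers summed to 1825 to 2082 CPM and the B markers to 5659 to 5871 CPM with anti-PD1, none of them was called, and with the difference between T and B markers as a covariate 7 members were called, all lower, and 3 of them were among the 4.

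No difference between the 2 single antibodies passed the test in any member. The test of anti-PD1 minus anti-LAG3 called 0 of 47 members and 0% of all genes, and DESeq2 called 0 members. At an unadjusted p under 0.05 in edgeR stood 0 members and 691 of all 15535 genes. The largest difference was that of MKI67, 0.25 log2 with a 95% interval of -0.16 to 0.65, which leaves room for a difference larger than that seen. For CENPE it was 0.06 log2 (-0.07 to 0.19), and for BIRC5 it was -0.04 log2 (-0.12 to 0.05).

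**Figure D3:**
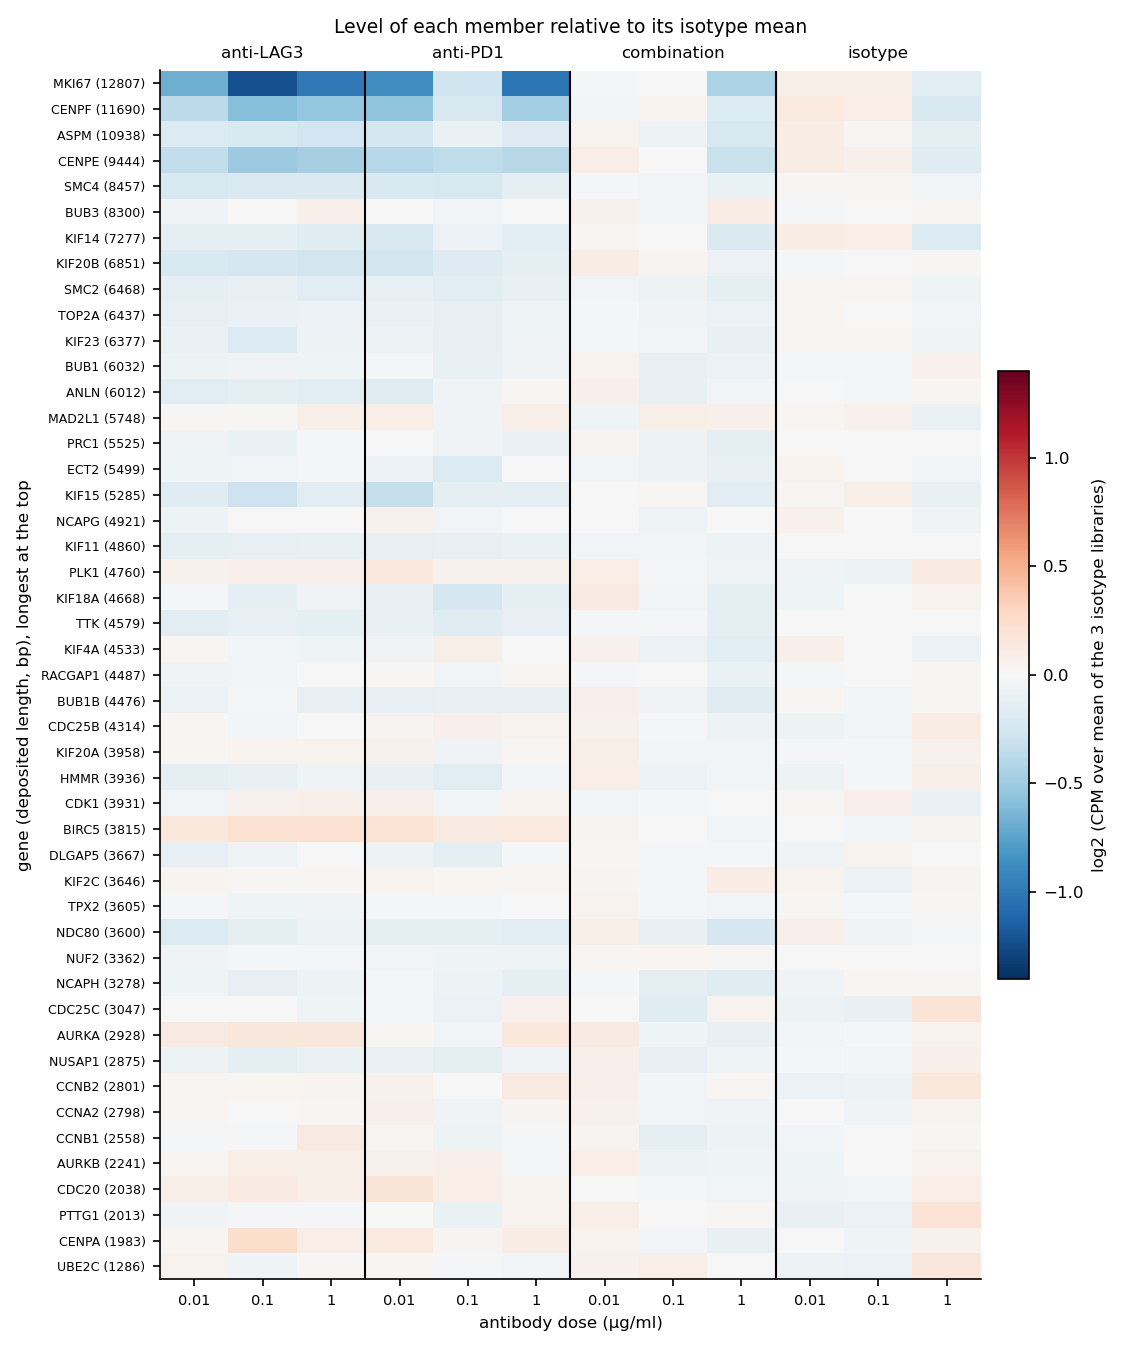
Heat map of log2 CPM of each member over its mean in the 3 isotype libraries, with members from the longest (top) to the shortest and libraries by arm (anti-LAG3, anti-PD1, combination, isotype) and dose. The blue block at the upper left is MKI67, CENPF, ASPM and CENPE in the single-antibody arms, and the combination and isotype libraries at 1 µg/ml are also bluer in those 4 genes than the lower doses of their arms.

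Against isotype, no member was called with the combination, 0 of 47, where 0.00644% of all genes tested were. With 1 gene called among 15535, this count cannot set the members apart from other genes. The change was below 0 in 37 members and above 0 in 10. Its median was -0.03 log2, against -0.0032 for all genes tested. NCAPH, a condensin subunit, was the 1 member with an unadjusted p under 0.05 in edgeR, where 1037 of all 15535 genes had one. Its change was -0.11 ± 0.05 log2 (adjusted p = 0.737), and DESeq2 called 0 members. MKI67 had 282, 285 and 207 CPM with the combination at 0.01, 0.1 and 1 µg/ml, a change of -0.15 log2 from isotype with a 95% interval of -0.55 to 0.24. CENPE had 63.4, 59.8 and 47.2 CPM and a change of -0.07 log2 (-0.19 to 0.06), and CENPF had 237, 251 and 210 CPM and a change of -0.06 log2 (-0.25 to 0.13). All 3 genes overlapped the isotype libraries, and the library at 1 µg/ml was the lowest of the combination arm in each. In MKI67 and CENPE, but not in CENPF, that library was below every isotype library in CPM. After TMM scaling, TTK and KIF11 were the members with every combination library below every isotype library, 2 of 47 where 4.19% of all genes did, and NUF2 had every one above, where 4.27% did.

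Set against anti-LAG3 alone, the combination had higher CENPE, CENPF, KIF20B and SMC4 and lower BIRC5. These were 5 of 47 members, where 5.75% of all genes tested were called, 2.61% higher and 3.14% lower. CENPE differed by 0.37 ± 0.07 log2 (adjusted p = 0.00479), KIF20B by 0.26 ± 0.05 (adjusted p = 0.00680), CENPF by 0.44 ± 0.10 (adjusted p = 0.0422), SMC4 by 0.16 ± 0.04 (adjusted p = 0.0301) and BIRC5 by -0.19 ± 0.04 (adjusted p = 0.0126). KIF20B had 91.0, 86.9 and 78.9 CPM with the combination at 0.01, 0.1 and 1 µg/ml, and BIRC5 had 178, 174 and 168 CPM, on the isotype side of the anti-LAG3 values in all 3 libraries of each gene. MKI67 differed by 0.79 ± 0.20 log2 and did not pass (adjusted p = 0.0833), though DESeq2 called it. The count of 5 was 0 without the combination library at 0.1 µg/ml, 1 without the anti-LAG3 library at 1 µg/ml, and 3 without the anti-LAG3 or isotype library at 0.1 µg/ml or the combination library at 1 µg/ml.

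Against anti-PD1 alone, 1 of 47 members was called, where 0.354% of all genes were. CENPE was higher with the combination by 0.31 ± 0.07 log2 (adjusted p = 0.0423), and each combination library was above each anti-PD1 library. That call was lost without any 1 of 7 libraries, among them the combination and anti-PD1 libraries at 0.1 and 0.01 µg/ml, with changes of 0.24 to 0.31 log2.

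The test of non-additivity asked whether the combination differed from the sum of the single-antibody changes. On the log2 scale the sum of both single arms was subtracted from the sum of the combination and isotype, and the test called 11 of 47 members (23.4%), where 15.3% of all genes tested were called, 7.3% above additivity and 7.97% below it. MKI67 (1.49 ± 0.29), CENPF (0.86 ± 0.14), CENPE (0.75 ± 0.09), KIF20B (0.45 ± 0.07), KIF15 (0.35 ± 0.09), SMC4 (0.34 ± 0.06), ASPM (0.31 ± 0.08), SMC2 (0.18 ± 0.06) and KIF11 (0.17 ± 0.06) lay above additivity. BIRC5 (-0.34 ± 0.06) and CDC20 (-0.22 ± 0.07) lay below it. The adjusted p-values ran from 6.11e-05 for CENPE to 0.0488 for KIF11. KIF15 and KIF11 are motors that push the spindle poles apart, and CDC20 activates the anaphase-promoting complex. None of these 3 was called in a single arm against isotype.

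KIF15 had 49.2, 50 and 44.1 CPM with the combination at 0.01, 0.1 and 1 µg/ml, 44.2, 40.1 and 44.3 CPM with anti-LAG3, 38.7, 45.2 and 45.3 CPM with anti-PD1 and 50.6, 53.2 and 44.9 CPM under isotype. KIF11 had 196, 196 and 189 CPM with the combination, 185, 185 and 187 CPM with anti-LAG3, 184, 188 and 189 CPM with anti-PD1 and 205, 203 and 196 CPM under isotype. CDC20 had 158, 155 and 152 CPM with the combination, 169, 169 and 167 CPM with anti-LAG3, 177, 169 and 162 CPM with anti-PD1 and 154, 156 and 164 CPM under isotype. In KIF15 the highest library was 1.38-fold the lowest. After TMM scaling every anti-LAG3 and every anti-PD1 library was below every isotype library in this gene. The differences between the arms were small in KIF11 and CDC20, and the KIF11 call was lost whichever 1 library was left out. The CDC20 call was lost without any 1 of 8 libraries and the SMC2 call without any 1 of 10. The count of 11 was 7 without the anti-LAG3 library at 0.1 µg/ml and 6 without the anti-PD1 library at 0.01 µg/ml, the combination library at 0.1 µg/ml or the isotype library at 0.1 µg/ml. CENPE, CENPF, SMC4, KIF20B, ASPM and BIRC5 stayed called whichever 1 of the 12 libraries was left out, and MKI67 in 7 of those 12 fits. With the trend on coding length taken out the ASPM term was -0.023 log2, with its direction turned. Of the T markers 0 of 22 lay above additivity and 3 below, and of the B markers 7 of 25 lay above and 1 below. With the difference between T and B markers as a covariate, 10 members were called, 8 of them among the 11, and the terms of MKI67 (1.65 log2), SMC2 and KIF11 did not pass.

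The members that fell were among the longest of the module. The deposited lengths of the members ran from 1286 bp (UBE2C) to 12807 bp (MKI67), with a median of 4487 bp, close to the 4421 bp of all genes tested. In order of length, all 7 members lower with anti-LAG3 were among the first 9, the other 2 being BUB3 and KIF14, and none of the 38 shorter members was lower. The 3 members lower with anti-PD1 were among the first 8, of which the other 5, MKI67, CENPF, ASPM, BUB3 and KIF14, did not pass. Across the 47 members, log2 length and log2 change had a Pearson r of -0.68 with anti-LAG3, -0.67 with anti-PD1 and -0.46 with the combination, and Spearman's rho was -0.66, -0.60 and -0.43. The combination value rests on 1 library, since r was 0.0044 without the isotype library at 0.01 µg/ml. These describe 47 genes measured in the same libraries. The anti-LAG3, anti-PD1 and combination values share the isotype libraries, and each is given only as its own.

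By rank, length went with the change over all genes too, but less. Over all 15535 genes tested, Spearman's rho of length and change was -0.19 with anti-LAG3, -0.14 with anti-PD1 and -0.06 with the combination. The Pearson r over all genes did not show this, at -0.023, 0.0076 and 0.016 in the same order. The 4 members of 9000 bp or more had a median change of -0.47 log2 with anti-LAG3, against -0.09 for the 2045 genes of that length, and -0.40 with anti-PD1, against -0.07. With the combination these medians were -0.07 for the members, against -0.03. The 10 members under 3000 bp had medians of 0.03, 0.03 and -0.01 log2 with anti-LAG3, anti-PD1 and the combination, and those genes include AURKB, CCNA2, CCNB1 and CCNB2.

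Coding length followed the change more closely than deposited length. Taken from GENCODE v29, it had a Pearson r with the change of -0.74 with anti-LAG3, -0.74 with anti-PD1 and -0.60 with the combination. Over the 12388 genes tested that have a coding length, this r was -0.26, -0.18 and -0.06, and Spearman's rho was -0.33, -0.23 and -0.14. BUB3, a spindle checkpoint protein, has a deposited length of 8300 bp but a coding length of 984 bp. It had 227, 233 and 244 CPM with anti-LAG3 at 0.01, 0.1 and 1 µg/ml, against 232, 236 and 232 CPM under isotype, a change of 0.01 ± 0.04 log2 (adjusted p = 0.925). KIF14, a kinesin of cytokinesis of 7277 bp with a coding length of 4944 bp, changed by -0.15 ± 0.06 log2 (adjusted p = 0.118). GC content of the members, with a median of 42.3% against 48.5% for all genes tested, had a Pearson r with the change of 0.32 with anti-LAG3, 0.41 with anti-PD1 and 0.19 with the combination, and a Spearman rho of 0.58, 0.63 and 0.27. Over the 13686 genes tested that have a GC value, this rho was 0.33, 0.38 and 0.06, further from 0 than that of deposited length with either single antibody.

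**Figure D4:**
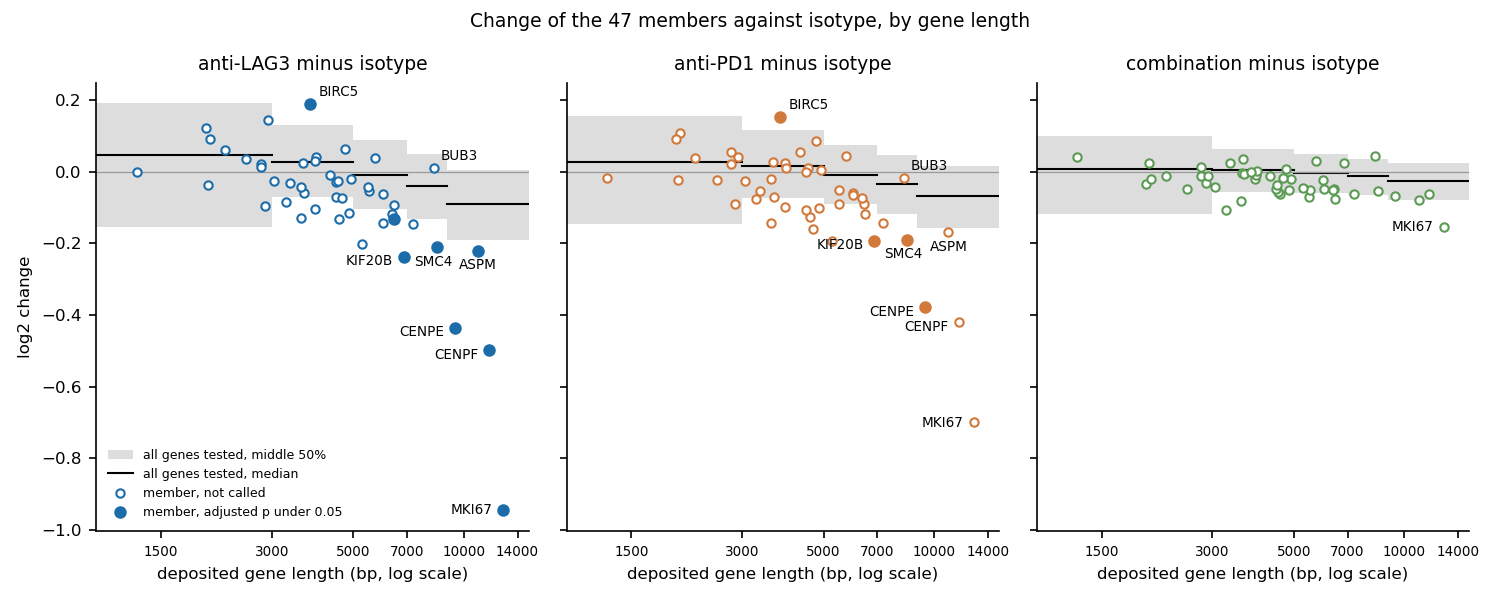
Log2 change of each member against deposited length (log scale), with anti-LAG3, anti-PD1 and the combination each minus isotype from left to right; filled points have an adjusted p under 0.05, the black steps are medians and the grey bands the middle 50% of all genes tested in 5 length classes (the outer classes extend beyond the axis). MKI67, CENPF and CENPE lie far below the band in the first 2 panels, and all members lie between -0.15 and 0.04 in the third.

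When each library's trend of count on length was taken out, 7 members were called with anti-LAG3 and 3 with anti-PD1. Of the 7, 5 were among the 8 above (CENPE, CENPF, SMC4, KIF20B and BIRC5) and 2 were not (KIF11 and NUSAP1), and of the 3, 2 were among the 4 above and CENPF was not. With the trends on length and GC content taken out together these counts were 3 and 0, and with the trend on coding length 2 and 2. The share of all genes called was not counted for these fits. Whether members lost calls more than other genes did was therefore not tested. CENPE fell with anti-LAG3 by 0.24 log2 at the least under these settings, still called. MKI67 kept a change of -0.84, -0.84 and -0.73 log2 with anti-LAG3 under the 3 settings, without passing the test. TOP2A, at 6437 bp, was taken as a reference within each library. It is shorter than MKI67, so the ratio does not control for length. After TMM scaling TOP2A was itself lower in every anti-LAG3 and anti-PD1 library than in every isotype library. The count of MKI67 was 0.288, 0.193 and 0.227 of that of TOP2A in the anti-LAG3 libraries at 0.01, 0.1 and 1 µg/ml, 0.250, 0.380 and 0.220 with anti-PD1, 0.426, 0.441 and 0.332 with the combination, and 0.440, 0.451 and 0.391 with isotype. The 4 longest members together held 445 to 545 CPM with anti-LAG3, 482 to 628 CPM with anti-PD1, 586 to 733 CPM with the combination and 634 to 795 CPM under isotype. The other 43 held 5479 to 5551, 5475 to 5583, 5411 to 5788 and 5614 to 5732 CPM in the same arms.

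The dose series asked whether the members followed the amount of antibody. Slopes are log2 changes per 10-fold dose, and each antibody slope was taken relative to the isotype slope. For anti-LAG3 0 of 47 members were called, where 0.0708% of all genes were, and DESeq2 called 0 members. At an unadjusted p under 0.05 in edgeR stood 5 of the 47 members and 1242 of all 15535 genes. For anti-PD1 0 of 47 were called, where 0.264% of all genes were, and DESeq2 called 0 members. At an unadjusted p under 0.05 in edgeR stood 7 members and 1725 of all 15535 genes. For the combination 1 of 47 was called, with a lower slope, where 4.63% of all genes were called and 2.8% had a lower slope. At an unadjusted p under 0.05 in edgeR stood 14 members, the called one included, and 2766 of all 15535 genes. The slope was below that of isotype in 38 members and above it in 9, with a median of -0.07 against 0.0061 for all genes. T markers moved with dose in the last of these series, 5 of 22 higher and 6 lower. With the difference between T and B markers as a covariate, 3 members were called in that series, CDC25B, PLK1 and PTTG1.

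CDC25B, a phosphatase that activates CDK1 at the onset of mitosis, was that member, with a slope of -0.16 ± 0.05 relative to isotype (adjusted p = 0.0425). It had 159, 150 and 143 CPM with the combination at 0.01, 0.1 and 1 µg/ml, against 146, 150 and 160 CPM under isotype. The arms ran in opposite directions, the combination slope alone was -0.07 ± 0.03 and the isotype slope 0.09 ± 0.03. Neither passed by itself (adjusted p = 0.295 and 0.198), and DESeq2 did not call the difference. It was also lost when any 1 of 9 libraries was left out, all of them anti-LAG3, combination or isotype libraries, and the value moved from -0.22 without the isotype library at 0.01 µg/ml to -0.10 without that at 1 µg/ml. PLK1 (-0.16 ± 0.05, adjusted p = 0.0525) and PTTG1, which encodes securin (-0.18 ± 0.06, adjusted p = 0.0660), came next without passing.

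Taken against 0, the combination series itself fell in 4 members, where 4.27% of all genes were called and 2.16% fell. CENPE fell by 0.20 ± 0.04 per 10-fold dose (SE, adjusted p = 0.00724), NDC80, a kinetochore subunit that binds microtubules, by 0.16 ± 0.04 (adjusted p = 0.0248), ASPM by 0.14 ± 0.03 (adjusted p = 0.0188) and BUB1B, a checkpoint protein, by 0.12 ± 0.03 (adjusted p = 0.0490). NDC80 had 48.8, 42.8 and 38.5 CPM with the combination at 0.01, 0.1 and 1 µg/ml, against 48.8, 45.1 and 44.2 CPM under isotype. BUB1B had 125, 115 and 105 CPM with the combination, against 122, 118 and 118 CPM under isotype. The isotype series also leaned with length. Its slope was -0.18 for CENPF, -0.14 for CENPE, -0.12 for MKI67 and -0.11 for ASPM, and 0.15 for PTTG1 and 0.12 for UBE2C, which are among the shortest members. None of these isotype slopes passed the test, where 0.856% of all genes were called. At an unadjusted p under 0.05 in edgeR stood 10 members and 2128 of all 15535 genes. Across the 47 members the isotype slope and log2 length had a Pearson r of -0.73 and a Spearman rho of -0.67. Over all genes tested the Pearson r was -0.013 and Spearman's rho -0.13. The isotype slope rests on 3 libraries, in which the one at 1 µg/ml was the deepest.

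**Figure D5:**
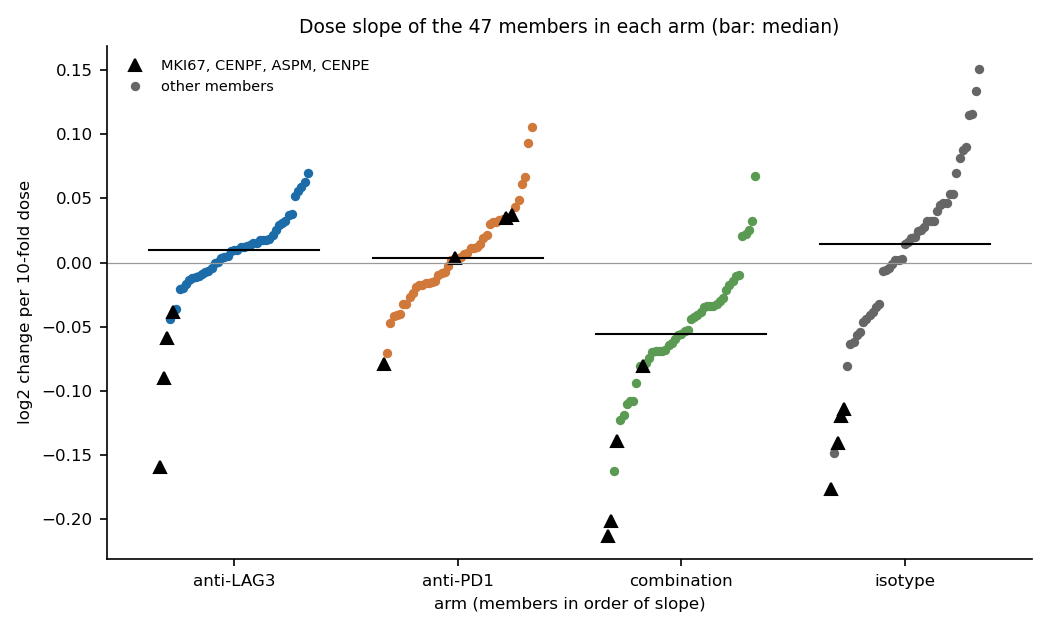
Dose slope of the 47 members within each arm (log2 change per 10-fold dose), with members in order of slope, a bar at the median and triangles for MKI67, CENPF, ASPM and CENPE. Those 4 genes lie at the low end in the anti-LAG3 and isotype arms and 3 of them in the combination arm, and the combination arm is shifted down as a whole, with a median of -0.06.

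Other genes of the same pathway were read from lists that do not hold members. Beside their counts with anti-LAG3 stand 5.16% of all genes called lower and 4.88% called higher, and with anti-PD1 1.73% and 2.09%. With anti-LAG3, 0 of 23 cell-cycle transcription regulators rose and 6 fell (median -0.07 log2), led by E2F7 and E2F8, repressors of the E2F family, at -0.35 ± 0.08 and -0.34 ± 0.06 log2 (adjusted p = 0.00783 and 0.00181), and MYBL1, a MYB factor, at -0.25 ± 0.06. FOXM1, which drives many G2/M promoters, was among the 6. Of 32 other spindle, centrosome and cytokinesis genes, 1 rose and 9 fell (median -0.09), led by CEP152 of the centriole (-0.30 ± 0.07), CIT, a cytokinesis kinase (-0.28 ± 0.07), and KIF18B (-0.28 ± 0.07). Of 16 cohesin and condensin genes, 1 rose and 5 fell, led by the cohesin loader NIPBL (-0.33 ± 0.05, adjusted p = 8.78e-04), the cohesin subunit SMC3 (-0.24 ± 0.04) and the condensin subunit NCAPH2, which rose (0.17 ± 0.05).

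Of 35 other kinetochore and checkpoint genes 1 rose and 2 fell with anti-LAG3, namely CENPM (0.22 ± 0.05), KNL1 (-0.31 ± 0.06) and CENPC (-0.25 ± 0.07). Of 18 genes of the anaphase-promoting complex and its enzymes 2 rose, ANAPC11 (0.29 ± 0.06) and UBE2S (0.28 ± 0.05), and none fell. Of 23 mitotic entry and exit regulators 1 rose and 1 fell, CKS1B (0.20 ± 0.05) and MASTL (-0.19 ± 0.06). The deposited lengths were 12529 bp for NIPBL, 13230 bp for CIT and 10250 bp for KNL1, all lower, and 1778 bp for CENPM, 2338 bp for CKS1B and 2788 bp for UBE2S, all higher. E2F8 at 4140 bp and MASTL at 3631 bp were lower as well, and so was SMC3 at 4275 bp. With anti-PD1, against the shared isotype libraries, the same 6 lists in this order had 3, 2, 3, 0, 0 and 1 genes lower and 0, 1, 1, 1, 1 and 1 genes higher, CENPM and UBE2S being the kinetochore and anaphase-promoting complex genes that rose. None was called with the combination.

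The authors deposited, for each of the 9 antibody libraries, a table of fold changes against the 3 isotype libraries at once. In the authors' deposited tables, MKI67 was lower at an adjusted p under 0.05 with anti-LAG3 at all 3 doses, with anti-PD1 at 0.01 and 1 µg/ml and with the combination at 1 µg/ml. In the authors' deposited table for anti-LAG3 at 0.1 µg/ml, the MKI67 log2 fold change was -1.24 and that of CENPF was -0.61 (adjusted p = 4.84e-27 and 1.31e-04). CENPF was lower in the authors' deposited tables for anti-LAG3 at 0.1 and 1 µg/ml and anti-PD1 at 0.01 and 1 µg/ml, and CENPE in those for anti-LAG3 at 0.1 and 1 µg/ml. No member was higher in any of the authors' deposited tables. At most 3 members were called in 1 table, and the share of all genes called in the authors' deposited tables at 0.01, 0.1 and 1 µg/ml was 0.195%, 2.84% and 2.58% for anti-LAG3, 1.45%, 0% and 0.443% for anti-PD1, and 0%, 0.199% and 1.73% for the combination.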

How the data were processed

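RNA was read in 12 co-culture libraries, 1 per arm and dose. The authors deposited raw gene counts with a length for each gene; per the submitters' processing notes they used Trimmomatic 0.36, STAR 2.5.2b, featureCounts (Subread 1.5.2), DESeq2 and GRCh38. No source used here gives the strand setting or the annotation release. They also deposited log2 fold changes with p-values for each antibody library against the isotype libraries, which are quoted only as the authors' own. In the count table, 4 columns matched no sample and were not used.

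CPM, and TPM from the deposited length, were computed from the counts. Genes passing edgeR's filter (minimum count 10) numbered 15535, and counts were scaled by TMM. The main test was edgeR 4.0.16 (limma 3.58.1, R 4.3.3), a quasi-likelihood F test with arm and dose as factors (6 residual degrees of freedom). Dose slopes were fitted per arm on log10 dose (4 residual degrees of freedom). Benjamini-Hochberg adjustment ran over all 15535 genes at 0.05, and the scripts were tested on simulated data. SE is the standard error of a log2 change.

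Alternatives were DESeq2 1.42.0 and its size factors, no filter, no dose factor, a T minus B marker covariate, lowess corrections (span 0.3) for length, length with GC content (known for 88.1% of genes) and coding length, and leaving out each library. The coding length correction was added after seeing the data. Coordinates and coding lengths come from GENCODE release 29. Depth was 23593973 to 36581754 counts, so that 3 counts, the most that a count of 0 allows, equal 0.0820 to 0.127 CPM; this covers counting error only.

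The members and gene lists were chosen with earlier results of these data known. Genes named are the members called in any comparison and the 3 highest and 3 lowest members per length. From each other list up to 3 called genes were named by size of change. In the combination dose series all 4 called genes of the other kinetochore and checkpoint list were named. CCNB1, CDK1, TOP2A, NDC80, NUF2, BUB1B, BUB3, KIF14, NCAPH, PLK1, PTTG1, AURKA, TTK, BUB1 and FOXM1 were added after their values were seen. The members AURKB, CCNA2, CCNB2 and NUSAP1 were named outside these rules.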

Additional observations from a re-analysis of the deposited data

Results flagged for a closer look

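In 11 members the effect of each antibody differed with and without the other, by the test of the non-additive term (edgeR, adjusted over all 15535 genes), where 15.3% of all genes were called. The term was 1.49 log2 for MKI67, 0.86 for CENPF, 0.75 for CENPE, 0.45 for KIF20B, 0.35 for KIF15, 0.34 for SMC4, 0.31 for ASPM, 0.18 for SMC2 and 0.17 for KIF11. It was -0.34 log2 for BIRC5 and -0.22 for CDC20. These calls were not equally stable. With 1 library left out, KIF11 stayed called in 0 of 12 fits, SMC2 in 2, CDC20 in 4, MKI67 in 7, KIF15 in 8 and the others in all 12. Each arm had 3 libraries at 3 doses, and all 4 arms enter the term.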

How the results depend on the processing

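Of the 30 calls on single members, 20 alternatives each left 414 on the same side of the threshold and 184 past it no longer, and turned 2: with the coding length correction ASPM was 0.013 log2 with anti-LAG3 against isotype and -0.023 in the non-additive term. Shares of all genes called were counted for the main fit only, so the member counts under the alternatives stand without them. Called members numbered 8 with anti-LAG3 against isotype, 2 with the T minus B covariate, 3 with length and GC content and 2 with coding length. With anti-PD1 against isotype these were 4, 7, 0 and 2. The combination against anti-LAG3 (5) had 3 with length and GC content and 2 with coding length. The combination against anti-PD1 (1) had 0 with the covariate, length, length and GC content or no dose factor, 2 with DESeq2 and 3 with no filter. The non-additive term (11) had 6 with length and GC content and 7 with coding length. The combination slope (1) had 3 with the covariate, length and GC content or no filter, 2 with length or coding length, 0 with DESeq2 and 4 against a slope of 0. With 1 library left out the counts ran from 3 to 11 (anti-LAG3), 0 to 7 (anti-PD1), 0 to 6 (combination against anti-LAG3), 0 to 3 (combination against anti-PD1), 6 to 13 (non-additive) and 0 to 4 (combination slope). The Pearson r of length and change, for anti-LAG3, anti-PD1 and the combination in this order, was -0.75, -0.72 and -0.66 with the covariate, -0.51, -0.52 and -0.22 with length, -0.48, -0.49 and -0.17 with length and GC content, -0.48, -0.53 and -0.18 with coding length corrected, and -0.74, -0.74 and -0.60 against coding length itself. It ran from -0.75 to -0.60, -0.75 to -0.57 and -0.68 to 0.0044 with 1 library left out, the last without the isotype library at 0.01 µg/ml. By CPM, TOP2A ranked 1, TPX2 2, UBE2C 20 and CENPE 41, and in isotype libraries alone CENPE ranked 45 and KIF18A 46 per length. The cause of these shifts was not tested. No paired analysis was possible because the labels number no replicates; dose, the one label that the arms share, is already a factor of the fit.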

Other observations

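Genes of the other side of the cell cycle were read from lists that hold no member. Of 31 G1/S and replication genes, 1 fell with anti-LAG3 against isotype, ORC1 of the origin recognition complex, at -0.19 ± 0.05 log2 (SE, adjusted p = 0.0158), and none was called with anti-PD1 or the combination. Over all genes tested 5.16% were called lower and 4.88% higher with anti-LAG3, and 1.73% lower and 2.09% higher with anti-PD1. The median of the 31 was 0.0033 log2 with anti-LAG3. Of 19 growth arrest genes tested, CDKN2A and CDKN2C, which encode CDK inhibitors, rose with anti-LAG3 by 0.21 ± 0.05 and 0.20 ± 0.04 log2, and MDM2, the p53 ubiquitin ligase, fell by 0.20 ± 0.04. CDKN2A and CDKN2C also rose with anti-PD1, by 0.23 ± 0.05 and 0.15 ± 0.04 log2, set against the same isotype libraries. In the combination dose series relative to isotype, the kinetochore genes SPC24 (-0.40 ± 0.07), SKA1 (-0.33 ± 0.07), SKA3 (-0.21 ± 0.06) and INCENP (-0.19 ± 0.05) fell per 10-fold dose, 4 of 35 other kinetochore and checkpoint genes. In that comparison 4.63% of all genes were called and 2.8% had a lower slope.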
